A study of Mus musculus with 9 samples.

Results

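Tetraspanins are small membrane proteins whose chain crosses the membrane repeatedly and forms a small and a large extracellular loop. They gather integrins, receptors, proteases, and each other into membrane microdomains, and some sort cargo into endosomes and exosomes. In myeloid cells they are known for effects on adhesion, migration, antigen presentation, and the trimming of surface receptors. The 10 genes described here are *Upk1b*, *Tspan13*, *Tspan14*, *Cd9*, *Cd37*, *Cd53*, *Cd63*, *Cd81*, *Cd82*, and *Cd151*, of 19937 genes measured, and they were chosen by name from earlier results of these same arrays. Each had a single probe set assigned to it alone, so no choice between probe sets was needed. No low-value filter was applied, and all 10 stayed in the analysis.

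RNA was measured on 9 arrays of BM cells from C57Bl/6 mice 8 weeks old by the labels, in steady state, with no treatment and no engineered allele given for these samples. All cells were sorted as Ly6Chi CD115+, and 3 arrays were made for each population. R1 was Flt3- CD11c-, R2 was Flt3+ CD11c-, and R3 was Flt3+ CD11c+. The study classes R1 and R2 as monocytes and R3 as pre-DCs, which are precursors of DCs, and its gate left out lineage-positive and MHCII+ cells. Each replicate number stands for 1 date in the labels, shared by 1 array of each population. Whether the arrays of a population came from separate mice or from pools is not stated in the labels or methods, so p-values measure the spread between arrays, which may be technical.

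Of the gate genes, *Itgax* and *Flt3* differed most between R3 and the other populations, and the *Flt3* values of R2 and R1 overlapped. *Itgax*, encoding CD11c, lay between 10.70 and 10.85 log2 intensity in R3 and between 5.06 and 6.18 in R1 and R2. *Flt3*, encoding the receptor used in the sort, was higher in R3 than in R2 by 3.13 and than in R1 by 3.81 on the log2 scale. *Flt3* was 0.68 higher in R2 than in R1, a difference that did not pass the test (limma, adjusted p = 0.281). Replicate 2 of R1 (7.78) lay above replicate 1 of R2 (7.70), which have different dates. Within dates, R2 minus R1 was 0.95, 0.24, and 0.85. *Kit*, encoding a progenitor receptor, was higher in R3 than in R1 by 0.82 (adjusted p = 0.0104), and its difference from R2 was 0.57 (adjusted p = 0.0733). *Csf1r*, encoding CD115, fell by 0.51 from R1 to R3 and differed by -0.24 from R2 (adjusted p = 3.36e-03 and 0.140). *Sirpa* fell by 0.69 from R2 and fell by 1.00 from R1 to R3 (adjusted p = 4.63e-04 and 3.61e-05). Against R2, R3 was higher for 7 and lower for 1 of the 14 DC markers, and for the 11 measured monocyte markers it was lower for 7 and higher for 1. This was 57.1% and 72.7% of the lists, where 9.55% of all genes were called. *Ly6c1* and *Ly6c2* are not named by a probe set of 1 gene and were not used here.

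Genes listed as markers of other cell types also moved. Of 11 measured plasmacytoid DC markers, 7 (63.6%) passed the test as higher in R3 against R2, where 9.55% of all genes were called. *Siglech* was among the 7, and the results of the study place R3 across SiglecH+ and SiglecH- pre-DC subsets. The summed linear intensity of the 11 was 10940 to 13420 in R3, against 3080 to 3194 in R2 and 3444 to 3589 in R1. Of 11 measured B cell markers, 3 were higher in R3 (summed intensity 1048 to 1163, against 635 to 739 in R1 and R2), whereas *Cd79a*, *Ms4a1*, *Pax5*, and *Ebf1*, which define the B lineage, were not called. The neutrophil granule gene *Ngp* was 10.73, 6.27, and 9.03 in replicates 1 to 3 of R3, and between 4.67 and 7.48 in R1 and R2. The summed intensity of the 10 neutrophil genes spanned 1635 to 16220 in R3, 11330 to 13910 in R2, and 8107 to 11490 in R1, while the defining gene *Ly6g* stayed between 4.21 and 5.03 on all arrays. The genes of this list did not move together. *Elane*, an early granule protease and the list's single call, fell by 4.16 from R2 and fell by 3.46 from R1 to R3 (adjusted p = 1.85e-06 and 2.90e-06). Of the 9 others, none called, R3 minus R2 was above 0 for 6, *Ngp* among them (2.07), and below 0 for *S100a8* (-1.42), *S100a9* (-0.83), and *Cxcr2* (-0.61). In these bulk samples, fewer cells of a type and less RNA per cell cannot be told apart.

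The largest difference among the 10 genes was in *Upk1b*, a uroplakin best known from the apical plaques of the bladder urothelium. Its log2 intensity was 4.84, 5.34, and 4.73 in replicates 1 to 3 of R1, 5.59, 4.96, and 5.34 in R2, and 9.54, 8.34, and 8.37 in R3. All R3 arrays lay above all others, and R1 and R2 overlapped. *Upk1b* is given without a test because it was singled out for this pattern. Means were 4.97 ± 0.32, 5.30 ± 0.32, and 8.75 ± 0.68 (SD, n = 3), so R3 exceeded R2 by 3.45 (10.9-fold) and R1 by 3.78 (13.7-fold) on the log2 scale. Ordered by the size of the rise among 19937 genes, it stood at rank 10 against R2 and rank 14 against R1. Within the arrays of 1 date, R3 minus R2 was 3.95, 3.37, and 3.03, and R3 minus R1 was 4.70, 2.99, and 3.64. R2 minus R1 was 0.33, with 0.75, -0.38, and 0.61 within dates, so the order of R1 and R2 differed between dates.

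On the linear scale, the mean intensity of *Upk1b* was 32.0 in R1, 40.0 in R2, and 466 in R3, which placed R2 1.9% of the way from R1 to R3. The R1 and R2 values lay under the median of every array, which ranged from 5.86 to 6.02 on the log2 scale. No detection call was used here, so the folds are set against an intensity that may be background. The uroplakin partners showed no such difference. *Upk2*, *Upk3a*, and *Upk3b*, whose proteins pair with uroplakin tetraspanins in the urothelium, differed by -0.16, 0.02, and -0.10 between R3 and R2, with 95% intervals of -0.40 to 0.08, -0.21 to 0.25, and -0.26 to 0.05. None of the 3 was called in any comparison. *Upk3a* (means 5.35 to 5.39) and *Upk3b* (means 5.37 to 5.48) also lay under every array median, so their values may be background too. In replicates 1 to 3 of R3, *Upk1b* was 9.54, 8.34, and 8.37. On the same arrays *Ngp* was 10.73, 6.27, and 9.03, and *Elane* was 7.51, 7.13, and 6.99. The part of neutrophil RNA in the result was not tested.

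**Figure D1:**
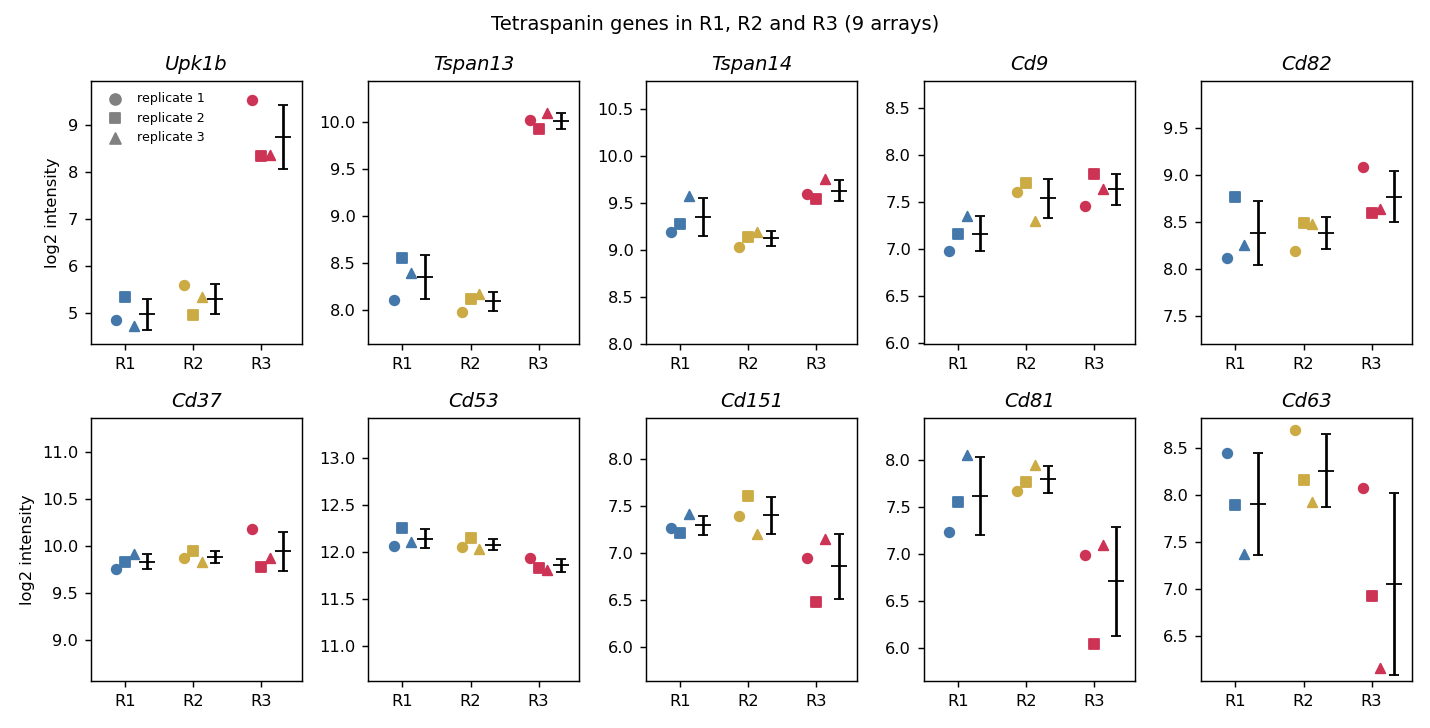
Log2 intensity of the 10 tetraspanin genes on each array, by population (x axis). Points are arrays, their shape gives the replicate (label date), and the bar beside them gives mean and SD. The y axis spans a common range in all panels but that of *Upk1b*, whose range is wider. R3 stands above both other populations for *Upk1b* and *Tspan13*, and *Cd63* spreads widely within each population.

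Differences between populations were tested with limma over all 19937 genes, and a gene was called at an adjusted p (Benjamini-Hochberg) under 0.05. Between R3 and R2, 2 of the other 9 genes were higher in R3 and 1 was lower, where 9.55% of all genes were called in either direction. Between R3 and R1, 1 was higher and 1 was lower, where 13.5% were called. Between R2 and R1, none of the 9 was called, where 0.391% were called. At an unadjusted p under 0.05, *Cd9* alone of the 9 passed in R2 against R1. The arrays of R3 and R2 did not overlap for 6 of the 9 genes (24.8% of all genes), those of R3 and R1 for 5 (24.5%), and those of R2 and R1 for 1 (13.4%). The median difference of the 9 genes was 0.06 between R3 and R2 and 0.11 between R3 and R1, against -0.01 and -0.02 over all genes. Both comparisons of R3 use the same R3 arrays.

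*Tspan13*, a less studied member of the family, showed the largest difference among the 9 genes other than *Upk1b*. Its log2 intensity was 8.10, 8.55, and 8.40 in replicates 1 to 3 of R1, 7.98, 8.12, and 8.17 in R2, and 10.02, 9.93, and 10.09 in R3. R3 lay above every R1 and R2 array, with a spread of 0.08 (SD, n = 3). The rise was 1.92 over R2 (SE 0.12, 3.79-fold, limma adjusted p = 1.0e-05) and 1.66 over R1 (SE 0.12, 3.17-fold, adjusted p = 1.67e-05). It passed in all 21 alternative settings in both comparisons. R2 minus R1 was -0.26, with a 95% interval of -0.52 to 0.00, and was not called (adjusted p = 0.471).

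*Tspan14* belongs to the TspanC8 subgroup, named for the cysteines of the large loop, which carries the protease ADAM10 to the cell surface. Its log2 intensity was 9.20, 9.28, and 9.58 in R1, 9.04, 9.14, and 9.19 in R2, and 9.59, 9.54, and 9.76 in R3. R3 lay above all R2 arrays, whereas R1 replicate 3 fell within the R3 range. R3 exceeded R2 by 0.51 (SE 0.11, 1.42-fold, limma adjusted p = 0.0173), and the difference from R1 was 0.28 and was not called (adjusted p = 0.143). The call against R2 was lost in 6 of 21 alternatives, among them those without R2 replicate 1, R2 replicate 2, or R3 replicate 3. Against R1 it was gained without R1 replicate 3 (adjusted p = 0.0279).

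The other TspanC8 genes did not move as 1 group. *Tspan17* was higher in R3 by 1.11 over R2 and 0.81 over R1 (adjusted p = 2.14e-03 and 9.30e-03), and *Tspan33* by 0.80 and 1.10 (adjusted p = 2.50e-03 and 2.88e-04). The R1 mean of *Tspan33* (5.66) lay under every array median and may be background. *Tspan5* fell by 0.53 from R2 and fell by 0.57 from R1 to R3, with adjusted p = 0.0485 and 0.0258, and the first of these calls held in 5 of 21 alternatives (0.0719 with the replicate date as a block). The call against R1 held in 12 of 21 and was lost without R1 replicate 2, R1 replicate 3, R3 replicate 1, or R3 replicate 2 (adjusted p = 0.0820, 0.0822, 0.0938, and 0.0925). *Tspan10* and *Tspan15* were not called. *Adam10*, whose protease cleaves Notch and other surface proteins, differed by -0.23 between R3 and R2 (adjusted p = 0.162) and fell by 0.44 from R1 to R3 (adjusted p = 8.44e-03). Of the 7 genes on this list, 3 were thus higher and 1 was lower against R2, and 2 were higher and 2 were lower against R1. This was 57.1% of the list in both comparisons, where 9.55% (R2) and 13.5% (R1) of all genes were called.

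*Cd81* and *Cd9* bind the immunoglobulin-domain proteins IGSF8 and PTGFRN and take part in cell adhesion and fusion, and CD81 is part of the B cell co-receptor. *Cd81* gave log2 intensities of 7.23, 7.56, and 8.06 in replicates 1 to 3 of R1, 7.67, 7.76, and 7.95 in R2, and 6.99, 6.04, and 7.09 in R3. All R3 arrays lay below all others, and replicate 2 of R3 lay furthest down. *Cd81* fell by 1.09 from R2 to R3 (SE 0.28, 2.12-fold, limma adjusted p = 0.0437). The difference between R3 and R1 was -0.91 (adjusted p = 0.0707), and it was called in 3 of 21 alternatives. These were the replicate date as a block (adjusted p = 0.0405), array weights (0.0389), and leaving out genes with a mean log2 intensity under 6 (0.0380). The call against R2 held in 9 of 21 alternatives, with differences from -1.29 to -0.75, and was lost in all but 3 of the 9 settings that leave out 1 array each (without R1 replicate 2, without any of the R2 arrays, and without R3 replicate 1 or replicate 2). Centring each array on its median gave an adjusted p of 0.0688. The R3 array with the lowest *Cd81* value was also the one with the lowest *Ngp* and *S100a8* values of the 3 (6.27 and 9.35), though not of *Elane*, and the part of this array's cell make-up in the result was not tested.

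*Cd9* did not share this pattern. Its log2 intensity was 6.98, 7.16, and 7.35 in R1, 7.61, 7.70, and 7.30 in R2, and 7.46, 7.80, and 7.64 in R3. R1 stood lowest on average, and R2 and R3 overlapped, with a difference of 0.10 (95% interval -0.21 to 0.40). R3 exceeded R1 by 0.47 without a call (adjusted p = 0.0529), and R2 exceeded R1 by 0.38 (95% interval 0.07 to 0.68, adjusted p = 0.351). The first difference was called in 3 of 21 alternatives. These left out genes with a mean log2 intensity under 6 (adjusted p = 0.0316), R1 replicate 3 (0.0397), or R2 replicate 3 (0.0404). *Cd9* is also a platelet gene, and the platelet gene *Pf4* was 4.68, 9.35, and 8.90 in replicates 1 to 3 of R2, where *Cd9* was 7.61, 7.70, and 7.30. The summed intensity of 6 megakaryocyte and platelet genes was 501 to 854 in R1, 388 to 2161 in R2, and 360 to 390 in R3, and none of them was called. The part of platelet RNA in the *Cd9* values was not tested. The shared partner *Igsf8* was higher in R3 than in R1 by 0.37 (adjusted p = 0.0497, called in 3 of 21 alternatives, with 0.0681 with the replicate date as a block), and its difference from R2 was 0.25 (adjusted p = 0.244).

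*Cd63* marks late endosomes, lysosomes, and exosomes. Its log2 intensity was 8.44, 7.89, and 7.37 in replicates 1 to 3 of R1, 8.69, 8.16, and 7.92 in R2, and 8.07, 6.92, and 6.15 in R3. Replicate 1 was the highest and replicate 3 the lowest array in each population, and R3 was the lowest population on each date. R3 minus R2 was -1.21 (SE 0.45, 95% interval -2.23 to -0.18) and was not called (limma adjusted p = 0.167), and R3 minus R1 was -0.85 (adjusted p = 0.308). Within dates, R3 minus R2 was -0.61, -1.24, and -1.77, and R3 minus R1 was -0.37, -0.98, and -1.22. With the replicate date as a block, both differences were called, at adjusted p = 8.56e-03 and 0.0285. Both were also called without R3 replicate 1 (-1.72 and -1.37), and neither was called in the 19 other alternatives. Without R3 replicate 3 they were -0.76 and -0.41.

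**Figure D2:**
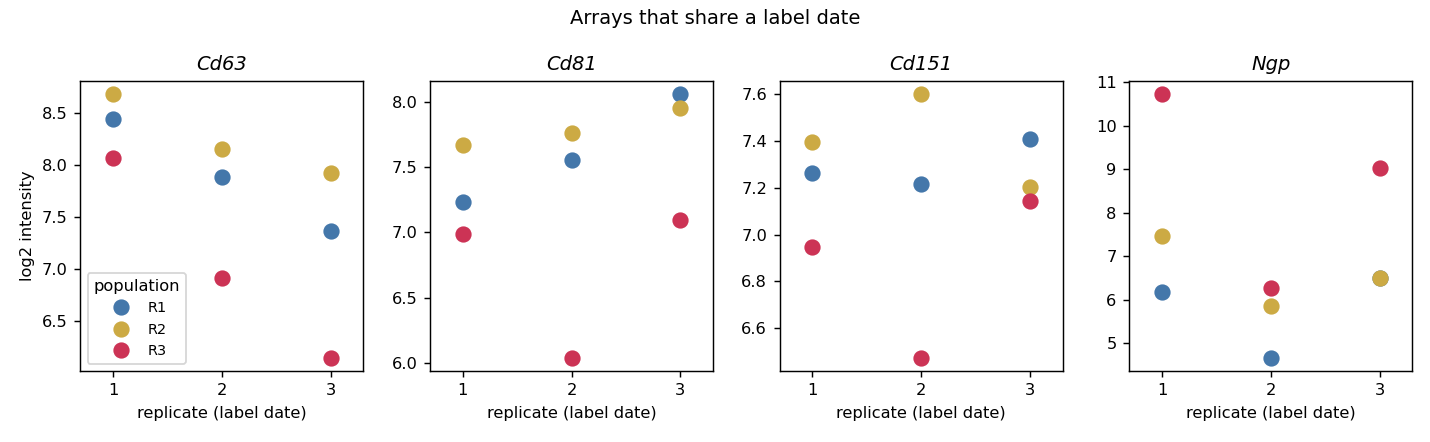
Log2 intensity of *Cd63*, *Cd81*, *Cd151*, and the neutrophil granule gene *Ngp* on each array, by the replicate number that stands for a label date (x axis, dates without order). Colors are populations and each point is 1 array. In *Cd63* the 3 populations keep the order R2, R1, R3 on each date, and in R3 *Cd81*, *Cd151*, and *Ngp* all have their lowest value in replicate 2.

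*Cd151* joins laminin-binding integrins, and *Cd82* restrains cell migration and integrin signaling. *Cd151* was 7.26, 7.21, and 7.41 in R1, 7.39, 7.60, and 7.20 in R2, and 6.95, 6.47, and 7.14 in R3, so that the R3 arrays lay below all others. R3 minus R2 was -0.54 (adjusted p = 0.0844) and R3 minus R1 was -0.44 (adjusted p = 0.135), neither called. The first was called in 3 of 21 alternatives, one of which left out R3 replicate 3 (-0.69, adjusted p = 0.0373). It was -0.35 without R3 replicate 2 (adjusted p = 0.180) and -0.25 without all arrays of replicate 2 (adjusted p = 0.476), and the difference from R1 was -0.25 without R3 replicate 2. *Cd82* was 8.11, 8.76, and 8.25 in R1, 8.19, 8.48, and 8.48 in R2, and 9.08, 8.59, and 8.63 in R3, a difference of 0.39 in both comparisons with 95% intervals of -0.04 to 0.81 and -0.03 to 0.82.

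*Cd37* and *Cd53* are tetraspanins largely restricted to leukocytes, and CD37 holds the fungal receptor dectin-1, encoded by *Clec7a*, at the surface of myeloid cells. *Cd53* was 12.06, 12.26, and 12.11 in R1, 12.06, 12.15, and 12.04 in R2, and 11.94, 11.83, and 11.81 in R3, with every R3 array below the others. *Cd53* fell by 0.28 from R1 to R3 (SE 0.08, 1.22-fold, limma adjusted p = 0.0393), a call that held in 6 of 21 alternatives and was lost with the replicate date as a block (adjusted p = 0.0580), after median centring, and after quantile normalization. Against R2 the difference was -0.22 (adjusted p = 0.130). *Cd37* was 9.75, 9.84, and 9.92 in R1, 9.88, 9.95, and 9.83 in R2, and 10.18, 9.78, and 9.88 in R3. The 3 populations overlapped, and the intervals of its differences lay between -0.19 and 0.35 in all comparisons. *Clec7a*, in contrast, fell by 1.60 from R2 to R3 and fell by 1.72 from R1 to R3 (adjusted p = 1.17e-05 and 5.42e-06).

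**Figure D3:**
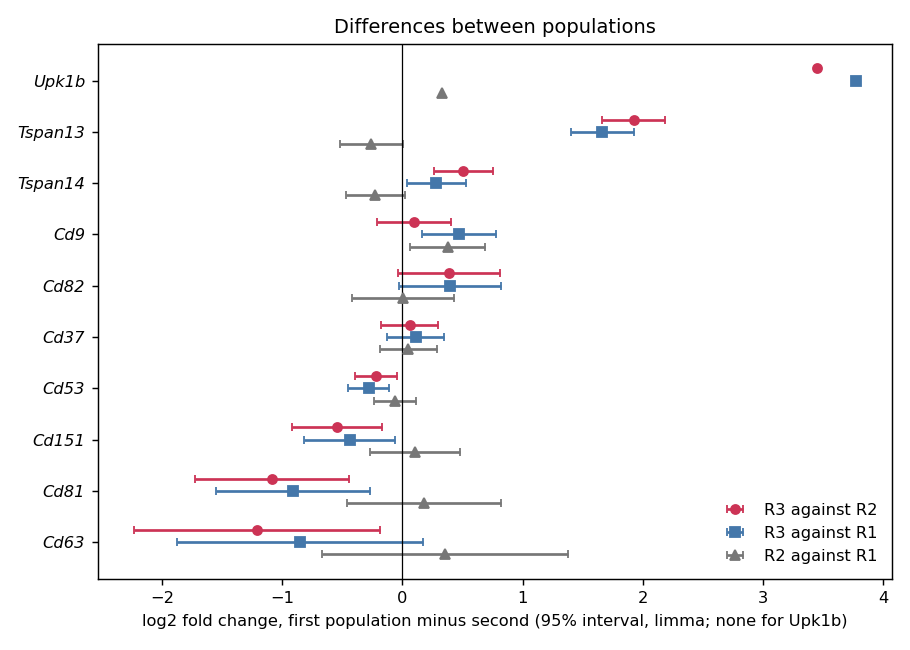
Log2 fold changes of the 10 genes (first population minus second, x axis) in 3 comparisons. Points are limma estimates from 3 arrays per population and bars are 95% intervals, not adjusted for the number of genes; *Upk1b* has none because it is given without a test. Apart from *Upk1b*, the R3 differences run from 1.92 for *Tspan13* to -1.21 for *Cd63*, and those between R2 and R1 lie between -0.26 and 0.38.

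Promoter sequence is shown for the member with the largest tested rise in R3 (*Tspan13*), the member with a called fall from R2 (*Cd81*), and *Cd37*, which was not called and whose window holds both motifs searched. RefSeq windows (GRCm38.p6, 250 bases before the annotated start, 5′ to 3′ on the strand of the gene) were found for 9 of the 10 genes. Capitals mark a match on either strand to GAGGAAGT, a core bound by PU.1 and other Ets factors, or to the E-box CAGGTG.
Tspan13, chr12:36042479-36042728, minus strand: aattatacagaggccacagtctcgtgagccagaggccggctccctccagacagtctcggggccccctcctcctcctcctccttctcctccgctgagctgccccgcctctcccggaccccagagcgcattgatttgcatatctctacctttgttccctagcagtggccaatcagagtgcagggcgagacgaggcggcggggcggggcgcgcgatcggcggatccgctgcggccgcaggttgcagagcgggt
Cd81, chr7:143052500-143052749, plus strand: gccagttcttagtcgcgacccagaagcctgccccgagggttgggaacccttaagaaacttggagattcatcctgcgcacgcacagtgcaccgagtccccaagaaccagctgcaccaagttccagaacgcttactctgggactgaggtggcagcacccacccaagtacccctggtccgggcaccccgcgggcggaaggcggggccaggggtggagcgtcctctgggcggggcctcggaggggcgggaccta
Cd37, chr7:45238840-45239089, minus strand: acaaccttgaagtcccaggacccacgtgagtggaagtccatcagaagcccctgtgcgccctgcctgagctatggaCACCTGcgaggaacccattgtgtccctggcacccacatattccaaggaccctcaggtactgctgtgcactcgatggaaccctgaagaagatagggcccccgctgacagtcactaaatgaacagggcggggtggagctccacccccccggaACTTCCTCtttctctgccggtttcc
GAGGAAGT was present in 2.44% of 32851 promoters and CAGGTG in 17.2%. Among the 14 windows of these genes, the first was found in *Cd37* and *Cd82*, and the second in *Cd9*, *Cd37*, *Cd82*, and *Cd151*. In *Cd37* the matches do not overlap. The *Tspan13* and *Cd81* windows hold neither run of letters.

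Beyond these 10 genes, 20 of 21 other tetraspanins on the family list were measured (*Tspan7* is not named by a probe set of 1 gene). Against both R2 and R1, R3 was higher for 3 and lower for 2. This was 25% of the 20, where 9.55% (R2) and 13.5% (R1) of all genes were called. Between R2 and R1 limma called none of the 20, where 0.391% of all genes were called. At an unadjusted p under 0.05, *Tspan33* and *Rom1* passed in that comparison, with differences of 0.29 and -0.43. *Tspan2*, known from myelinating cells, was 5.25, 5.62, and 5.56 in R1, 5.02, 5.39, and 5.88 in R2, and 6.80, 6.47, and 7.01 in R3. It was higher by 1.33 than in R2 and by 1.29 than in R1 (adjusted p = 4.11e-03 and 3.74e-03). *Tspan32*, a tetraspanin of blood cells that restrains T cell responses, was 7.44, 7.67, and 7.53 in R1, 8.11, 7.81, and 8.09 in R2, and 5.26, 6.20, and 5.57 in R3. *Tspan32* fell by 2.32 from R2 and fell by 1.87 from R1 to R3 (SE 0.21 in both, adjusted p = 1.03e-04 and 3.06e-04), the largest fall of the 30 measured tetraspanins in either comparison. The R3 mean of *Tspan32* (5.68) and the R1 and R2 means of *Tspan2* (5.47 and 5.43) lay under every array median. These levels may be background, so the sizes of these differences may depend on it. *Tspan32* and *Cd81* lie next to each other on chromosome 7 with no coding gene between them in RefSeq, and both were lower in R3 than in R2. Of the other neighboring pairs in the family, *Tspan18* and *Cd82* differed by -0.03 and 0.39 between R3 and R2, *Tspan11* and *Tspan9* by -0.08 and -0.06, and *Cd151* and *Tspan4*, with 1 coding gene between them, by -0.54 and -0.19, and none of these was called. The remaining calls were those of *Tspan17*, *Tspan33*, and *Tspan5* given above. The median difference of the 20 genes was 0.00 against R2 and 0.00 against R1. Several of the 20 lay under every array median in all populations, among them *Tspan6* (means 3.13 to 3.27) and *Tspan15* (means 5.32 to 5.33). Their values may be background, so differences near 0 in such genes say little.

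**Figure D4:**
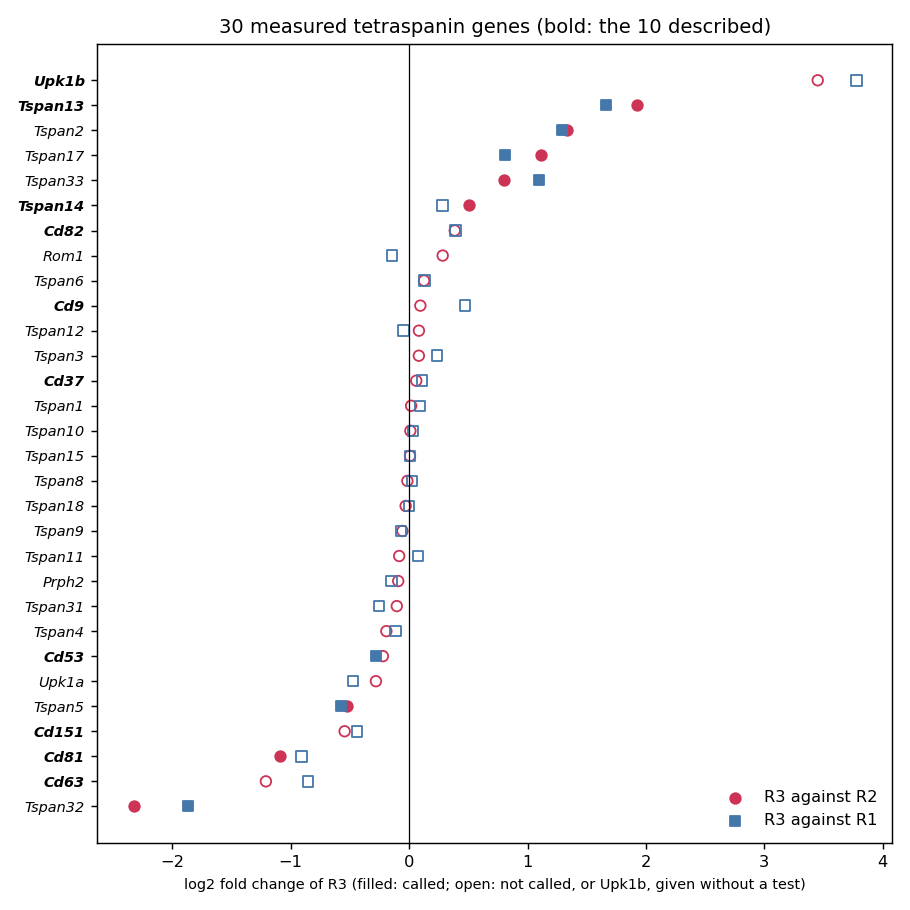
Log2 fold change of R3 against R2 (circles) and against R1 (squares) for 30 tetraspanin genes, ordered by the first. Filled symbols passed the test at an adjusted p under 0.05, open ones did not, and *Upk1b* is open because it is given without a test. *Upk1b* and *Tspan32* stand at the ends, at 3.45 and -2.32 against R2, and most of the family lies near 0. Several of the genes near 0 have means under every array median and may be background.

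Among surface partners of tetraspanins, of which 17 were measured, R3 was higher for 2 and lower for 2 against R2, and higher for 3 and lower for 4 against R1. This was 23.5% and 41.2% of the list, where 9.55% and 13.5% of all genes were called. *Cd226*, an activating adhesion receptor of lymphocytes, was higher by 1.85 and 2.35 (adjusted p = 4.73e-05 and 7.94e-06). Its R1 and R2 means (5.19 and 5.69) lay under every array median and may be background. *Itgb1*, the integrin beta chain that many tetraspanins accompany, was higher by 0.59 and 0.46 (adjusted p = 1.70e-03 and 5.69e-03). The integrin gene *Itga4* fell by 0.56 from R1 to R3 (adjusted p = 1.20e-03), and its difference from R2 was -0.26 (adjusted p = 0.0721). The median difference of the 17 genes was 0.03 against R2 and 0.04 against R1.

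The endosome and exosome partners of *Cd63* divided as well, with R3 higher for 3 and lower for 3 of 14 genes against R2, and higher for 3 and lower for 4 against R1. This was 42.9% and 50% of the list, where 9.55% and 13.5% of all genes were called. The lysosomal membrane gene *Lamp1* fell by 0.63 from R2 and fell by 0.75 from R1 to R3 (adjusted p = 1.11e-03 and 3.01e-04), and *Lamp2* fell by 0.54 and fell by 0.63 (adjusted p = 6.21e-03 and 2.01e-03). *Cd74*, the invariant chain of MHCII, was higher by 1.83 and 1.99 (adjusted p = 0.0132 and 6.53e-03). The *Cd74* call against R2 held in 15 of 21 alternatives and was lost without R2 replicate 1 (adjusted p = 0.0530) or R2 replicate 3 (0.0505), without each date, and by the test with each gene's own spread (0.153), and the call against R1 held in 19. *H2-DMa*, encoding a chain of the MHCII peptide exchange factor, was higher by 1.07 and 1.09 (adjusted p = 4.10e-05 and 2.70e-05). The median difference of the 14 genes was -0.03 against R2 and -0.14 against R1.

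The genes most like *Upk1b* over the 9 arrays, by the root mean square difference of log2 profiles centred on their own mean, were *Ccnd1* (0.36), *Rgl1* (0.40), *Aff3* (0.41), *Srgap3* (0.42), and *Fads2* (0.43). The mean log2 intensity of *Ccnd1* was 6.53 in R1, 6.99 in R2, and 10.60 in R3. The genes most like *Cd81* were *Rab31* (0.20), *Txnl4b* (0.20), *Slc16a3* (0.21), *Cd69* (0.21), and *Trpm2* (0.22). The mean of *Rab31* was 8.89 in R1, 9.01 in R2, and 7.91 in R3. All these profiles come from the same 9 arrays, and the measure is given as a description.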

How the data were processed

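RNA of sorted BM populations was measured on 9 Affymetrix Mouse Gene 1.0 ST arrays, 3 per population. By the methods, 1 ng RNA per sample was amplified by single-primer isothermal amplification (NuGEN), labeled with biotin, hybridized, scanned, and analyzed in GenePattern. Amplification from so little RNA can add spread between arrays. The authors deposited 1 linear intensity per probe set and array, and the background correction, summarization, and normalization behind it are, in the sources used here, not given. The log2 of each deposited value was taken, with no further scaling. Array medians ran from 58.0 to 64.7 on the linear scale.

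Of 34760 probe sets, 21640 are annotated to 1 gene, 1321 to several, and 11799 to none. The probe set with the highest mean per gene was kept, which gave 19937 genes. Populations were compared with limma 3.58.1 in R 4.3.3 (lmFit and eBayes, 3 populations in 1 fit, 6 residual degrees of freedom), with Benjamini-Hochberg adjustment over all genes, and the code was tested on simulated data. The methods state that the study also made raw scanner files, which were not analysed here, so no detection call was made. The number of arrays limits the precision. The members and all gene lists were chosen with earlier results of these data known. Named genes were the 10 members, every other tetraspanin called, up to 4 called genes of each partner list, *Adam10*, *Igsf8*, the uroplakin partners, the gate genes, and the 5 genes most like *Upk1b* and *Cd81*. Genes named beyond these, among them cell type markers, were chosen after their values were seen.

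Replicate numbers were taken from the label dates, which pair 1 array of each population. Correlations of same-numbered arrays' deviations from the population means ran from -0.02 to 0.15. Those of differently numbered arrays of different populations ran from -0.15 to 0.08. Alternatives were median centring, quantile normalization, leaving out genes with a mean log2 intensity under 6, the replicate block, array weights, a variance prior with a trend, fits to 2 populations, an unpaired test with each gene's own spread, and leaving out each array or each date.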

Additional observations from a re-analysis of the deposited data

How the results depend on the processing

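Counts of called genes are over the 9 tetraspanins other than *Upk1b* and over the 20 others of the family. In R3 against R2, 3 of the 9 were called, 1 by the test with each gene's own spread, and 1 to 3 when an array or a date was left out. The call of *Cd151* was gained when dim genes were left out (adjusted p = 0.0489) and with array weights (0.0336). That of *Cd81* was lost after median centring (0.0688) and in the fit to 2 populations (0.0680). In R3 against R1, 2 of the 9 were called, and 1 after median centring, after quantile normalization, in the fit to 2 populations, and by the test with each gene's own spread. It was 4 when dim genes were left out, and 1 to 3 in the settings that leave out an array or a date. Of the 20 others, 5 were called in each R3 comparison, 2 (R3 against R2) and 0 (R3 against R1) with each gene's own spread (limma called 5), and 1 to 5 and 3 to 5 when an array or a date was left out. With the replicate block, 4 and 3 of the 9 and 4 and 5 of the 20 were called, and the calls it changed among the tetraspanins stand beside their values above. *Tspan13* was called in both R3 comparisons in all 21 settings, and *Upk1b* kept differences of 3.05 to 3.66 against R2 and 3.32 to 4.17 against R1.

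Signs turned where differences were small and not called. In R2 against R1, *Cd37* became -0.0325 and *Cd82* -0.0742 after median centring, and *Cd82* became -0.16 with array weights. *Upk3a* became 0.0231 in R3 against R1 with array weights. Leaving out arrays or dates gave -0.0267 to 0.22 for *Cd9* and -0.0589 to 0.18 for *Cd37* in R3 against R2, and -0.0485 to 0.19 for *Cd37* in R3 against R1. In R2 against R1 it gave -0.0119 to 0.40 for *Cd81*, -0.12 to 0.20 for *Cd82*, and -0.0365 to 0.26 for *Cd151*. For the uroplakin partners it gave -0.0427 to 0.12 for *Upk3a* in R3 against R2, and in R3 against R1 -0.0673 to 0.0426 for *Upk3a*, -0.17 to 8e-04 for *Upk2*, and -0.0426 to 0.0301 for *Upk3b*. The cause of these changes was not tested. *Upk1b* in R1 and R2 lies under the array medians, so its folds depend on how background was corrected before deposit.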
